A study of Mus musculus with 6 samples.

Results

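The genes described here encode sodium, calcium and chloride channels of mouse muscle. They are all 53 protein-coding rows, of 54532 rows in the count table, whose symbol starts with Scn, Cacn or Clcn. Of these, 18 belong to the sodium group, 26 to the calcium group and 9 to the chloride group. By their product, 32 form a pore, 20 are accessory subunits, and 1, Scnm1, encodes a splicing factor and no channel subunit. The RNA came from gastrocnemius, a fast calf muscle, of C57BL/6J mice aged 3 months. All mice carried Mck cre, a Cre recombinase under the muscle creatine kinase promoter, which is active in skeletal and heart muscle fibres. From the age of 4 weeks all of them drank water with 0.2% doxycycline. The 3 control libraries (Ctrl) carried Mck cre alone, and the other 3 (MP) also carried Tg Glut1-Hk2-Pfkfb3, a transgene named for genes of glucose uptake and glycolysis. Whether each library is a separate animal is not in the labels, and the p-values below therefore reflect only how much these libraries vary, which may be technical.

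A muscle fibre fires an action potential when voltage-gated sodium channels open. In adult skeletal muscle the pore is mainly Nav1.4, the product of Scn4a, which is joined by beta subunits. The wave enters the T-tubules, where the L-type calcium channel acts as a voltage sensor that opens the ryanodine receptor of the sarcoplasmic reticulum. That L-type channel is a complex of the pore Cacna1s with Cacna2d1, Cacnb1 and the gamma subunit Cacng1. The chloride channel ClC-1, the product of Clcn1, carries most of the resting conductance of the fibre membrane and steadies it after each spike, and its loss causes myotonia.

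The libraries held 19546456 to 24665024 counts, of which the channel genes took 0.300% to 0.418%. None of the mouse genes named in the transgene passed as higher, and whether the transgene's RNA is counted under these genes is not known from the labels. Pfkfb3, Slc2a1 and Hk2 had log2 fold changes of -1.52 ± 0.57, -0.63 ± 0.31 and 0.44 ± 0.27 (SE), with edgeR adjusted p-values of 0.196, 0.290 and 0.381. The groups are therefore named by their labels throughout. Fibre markers were abundant in every library, at 97141 to 143910 CPM (counts scaled to a common library size) summed over 10 genes. Of their log2 fold changes 9 were negative and 1 positive, with a median of -0.30, and 0 passed the test. Control replicate 1 stood apart, its log2 CPM correlating at 0.955 to 0.966 with the rest, which among themselves reached 0.968 to 0.992. It also had 599.8 CPM summed over 13 lymphocyte markers, against 7.69 to 60.2 CPM in the other 5.

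Of the channel genes, 36 passed the filter on low counts, and 1 of these passed the test at an adjusted p of 0.05. Cacnb4, a beta subunit of calcium channels, rose in the libraries labelled transgenic. That is 2.78% of the tested members, against 1.30% of the 14973 genes tested (0.788% as higher). At an unadjusted edgeR p under 0.05 there were 9 of 36 (6 higher and 3 lower), 25.0% against 20.8% of all genes. CPM values of the groups did not overlap in 7 members as higher and 4 as lower, 19.4% and 11.1%, against 13.8% and 13.6% of all genes. These shares lie near the background. The median log2 fold change of the tested members was 0.16, beside -0.03 for all genes, and the median size was 0.42 beside 0.27. With DESeq2, 5 of 36 passed, 13.9% against 7.31% of the genes it adjusted. Without control replicate 1 there were 4 of 36 with edgeR, 11.1% against 13.1% of all genes, and without any other single library there were 0.

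**Figure D1:**
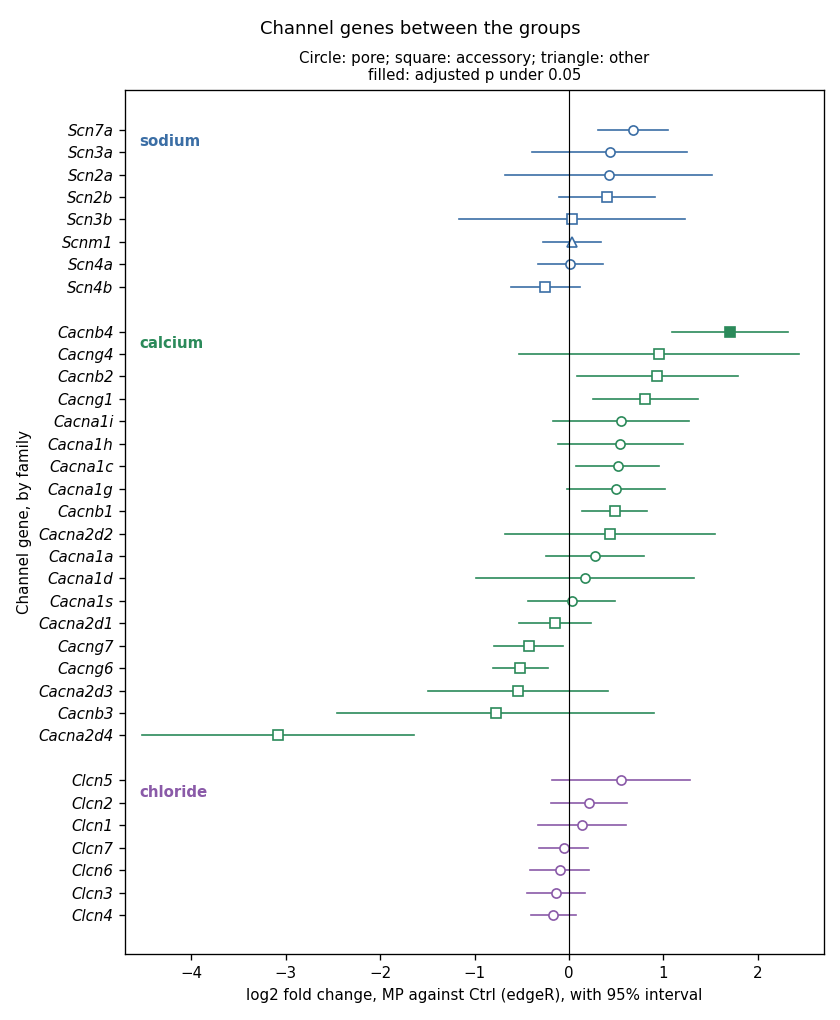
The log2 fold change of tested channel genes, leaving out those not reported here, between libraries labelled transgenic and control is plotted on the x axis with its 95% interval, grouped by family on the y axis, with circles for pores, squares for accessory subunits and a triangle for Scnm1. Cacnb4 is the single filled symbol, at 1.71, while the highly expressed pores Scn4a, Cacna1s and Clcn1 sit near 0.

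The members differed in level by several orders of magnitude, on the deposited FPKM scale, which divides by gene length. Averaged over the 6 libraries, 9 members reached 10 FPKM, 19 reached 1 and 28 reached 0.1. Among the members reported here by name the highest was Cacng1 at 215 FPKM, followed by Cacna1s (136), Scn4b (74.6), Scn4a (60.5), Cacng6 (42.8), Cacnb1 (35.5), Cacna2d1 (33.6) and Clcn1 (17.5). Neighbours in that order overlapped between libraries in several places. Cacng1 ranged from 126 to 336 FPKM and Cacna1s from 111 to 158 FPKM, and Cacng6, Cacnb1 and Cacna2d1 together spanned 25.9 to 54.4 FPKM. The most abundant of the remaining genes were Scnm1 at 9.30 FPKM and the intracellular exchangers Clcn4 and Clcn7 at 6.93 and 6.34 FPKM. In the sodium and calcium families a single pore made up nearly all of the pore RNA, and in the chloride family it did not. Scn4a made up 96.8% ± 0.134 of the summed FPKM of the 10 voltage-gated sodium pores in controls (SD, n = 3) and 95.1% ± 0.224 in those labelled transgenic, without overlap. Cacna1s made up 97.0% to 98.8% of that of the 10 calcium pores, and Clcn1 37.9% to 53.0% of that of the 9 ClC genes.

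**Figure D2:**
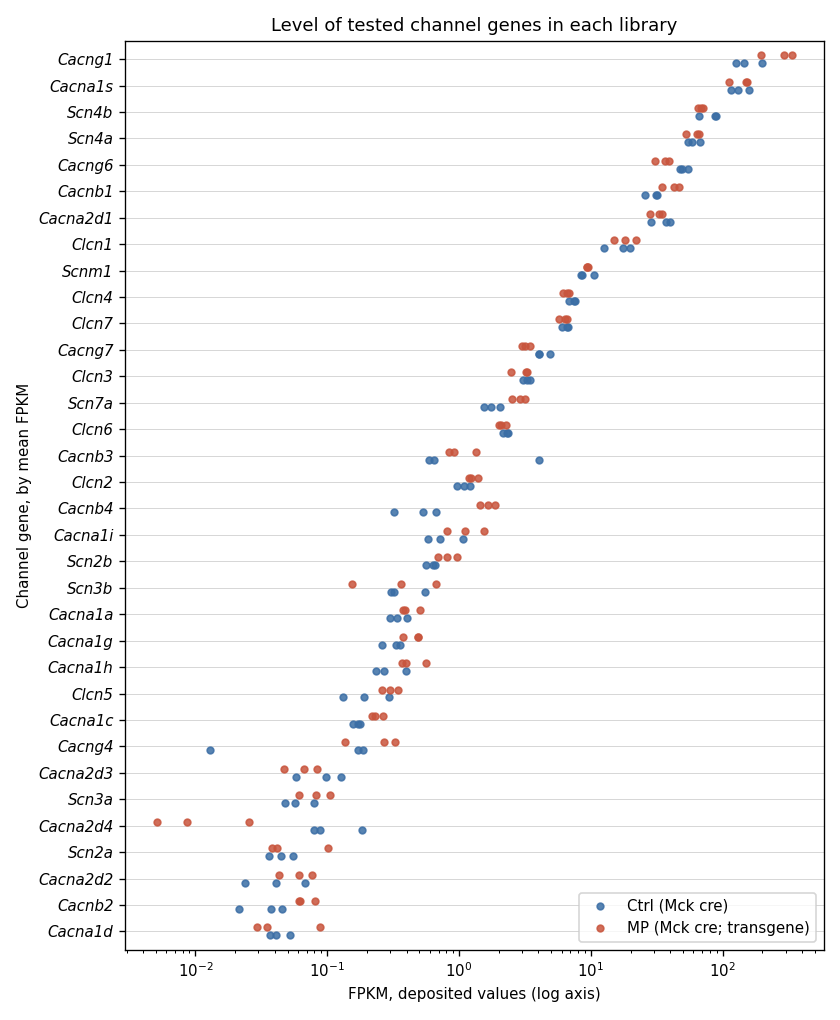
Deposited FPKM of the same tested channel genes is shown on a log x axis, 1 point per library, with genes ordered by mean level on the y axis. The muscle channel genes from Cacng1 to Clcn1 lie above 10 FPKM in every library, and Cacnb4, Scn7a and Cacna2d4 are among the genes whose groups separate.

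The pore of the skeletal L-type channel, Cacna1s (ENSMUSG00000026407, GRCm38 chromosome 1, 136052750 to 136119822), did not pass the test. It was at 765, 862 and 1033 CPM in control replicates 1, 2 and 3, and at 734, 998 and 980 CPM in the corresponding libraries labelled transgenic. The groups overlapped fully, with a log2 fold change of 0.03 ± 0.20 (95% interval -0.43 to 0.49). Gm37759, on the opposite strand, shares 20% of the exon bases of Cacna1s in GENCODE M21 and had 4 to 16 counts per library. Cacna2d1, whose product is an accessory subunit and the binding site of gabapentin, was at 357, 466 and 493 CPM in controls and 354, 429 and 404 CPM in the libraries labelled transgenic. Cacna2d1 had a log2 fold change of -0.15 ± 0.17 (interval -0.53 to 0.24). The ratio of Cacna2d1 to Cacna1s FPKM lay between 0.217 and 0.285 in all libraries.

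Beta subunits bind the pore subunit from the cytoplasm and are needed to place it in the membrane. The rise of Cacnb4 (ENSMUSG00000017412, chromosome 2, 52428320 to 52676831), known best from brain and from the lethargic mouse, was the one call among the channel genes. Control replicates 1, 2 and 3 were at 2.92, 6.00 and 4.75 CPM, and the libraries labelled transgenic at 13.1, 16.7 and 14.8 CPM. Every library labelled transgenic lay above every control library. The means were 4.56 ± 1.55 and 14.9 ± 1.81 CPM (SD, n = 3 each), a 3.27-fold difference. The log2 fold change was 1.71 ± 0.26 (interval 1.10 to 2.32, edgeR adjusted p = 0.0366). An exact two-sided permutation test gave 0.1, its lower limit for groups of 3. Leaving out control replicate 1, the lowest control, gave 1.46 with adjusted p = 0.00917. The call was lost without each of the other 5 libraries in turn, where adjusted p ran from 0.0737 to 0.167 and the log2 fold change from 1.62 to 1.96. An RNA on the opposite strand, A430018G15Rik, shares 16.0% of the exon bases of Cacnb4 in GENCODE M21, but had at most 1 count in any library.

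RefSeq lists 3 start sites for Cacnb4, and 39 of the 53 members had at least 1 start site in that table (build GRCm38.p6). The outermost and the innermost Cacnb4 windows, each from 250 bases before to 50 after the start, are shown because Cacnb4 is the channel gene that changed and its starts differ in sequence. Capitals mark CANNTG, the E-box core bound by basic helix-loop-helix factors such as the myogenic ones, which reads the same on both strands. CANNTG occurs in 72.3% of all 32851 windows and its form CAGCTG in 16.3%, and the count tables do not separate the starts.
Cacnb4 start 1, chr2:52676094-52676393, minus strand: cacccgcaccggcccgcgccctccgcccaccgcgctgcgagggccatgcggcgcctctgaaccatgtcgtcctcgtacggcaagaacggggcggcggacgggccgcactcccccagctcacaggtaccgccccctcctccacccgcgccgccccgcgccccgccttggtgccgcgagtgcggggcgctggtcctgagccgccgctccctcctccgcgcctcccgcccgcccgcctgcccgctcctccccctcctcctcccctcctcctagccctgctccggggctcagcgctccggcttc
Cacnb4 start 3, chr2:52558562-52558861, minus strand: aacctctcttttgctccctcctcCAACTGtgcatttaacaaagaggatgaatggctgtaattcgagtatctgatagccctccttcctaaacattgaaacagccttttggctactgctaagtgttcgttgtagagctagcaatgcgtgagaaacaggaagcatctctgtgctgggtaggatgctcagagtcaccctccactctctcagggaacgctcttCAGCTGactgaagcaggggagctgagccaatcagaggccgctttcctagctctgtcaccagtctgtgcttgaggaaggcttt
The outer window is 78.3% G and C and holds no CANNTG. The inner window is 49.7% G and C and holds 2, of which 1 is CAGCTG. The median over all windows is 52.7% G and C.

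Cacnb1 (ENSMUSG00000020882, chromosome 11, 98001508 to 98023034), the beta subunit of the muscle channel, did not pass the test. It was at 118, 144 and 140 CPM in controls and at 158, 213 and 191 CPM in the libraries labelled transgenic. The groups did not overlap, and the log2 fold change was 0.48 ± 0.15 (interval 0.14 to 0.83, edgeR adjusted p = 0.138, exact permutation p = 0.1). Cacnb2, the main cardiac beta subunit, was low, with means of 0.461 ± 0.161 and 0.898 ± 0.146 CPM and no overlap (log2 fold change 0.94 ± 0.37, adjusted p = 0.209). As a share of the summed FPKM of the 4 beta genes, Cacnb4 was 1.07%, 2.02% and 1.65% in controls and 3.85%, 3.73% and 3.69% in the libraries labelled transgenic. Cacnb1 remained the main beta RNA, at 85.5% to 96.4% of that sum. In control replicate 1 Cacnb3 took 13.3% of the sum, against 1.82% to 3.59% in the other libraries, which lowers the other shares there. Without that library the means of the Cacnb4 share differed by 1.92 percentage points, against 2.18 with all libraries. Set against the pore, the ratio of Cacnb1 to Cacna1s FPKM was 0.223, 0.241 and 0.196 in controls and 0.312, 0.309 and 0.282 in the libraries labelled transgenic, again without overlap.

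The pair of gamma subunits of muscle showed values that went opposite ways. Cacng1 (ENSMUSG00000020722, chromosome 11, 107703218 to 107716522), which damps the muscle L-type current, was at 159, 247 and 182 CPM in controls. It was at 246.9, 420 and 362 CPM in the libraries labelled transgenic. Transgenic replicate 1 fell a little under control replicate 2, so the groups overlapped at one point. The log2 fold change was 0.81 ± 0.24 (interval 0.25 to 1.36, edgeR adjusted p = 0.131). DESeq2 gave 0.82 with adjusted p = 0.0205. With each library left out in turn, the edgeR adjusted p ran from 0.0941 to 0.330. Cacng6 (ENSMUSG00000078815, chromosome 7, 3424195 to 3435667), a second gamma subunit of striated muscle, was at 94.9, 107.7 and 96.4 CPM in controls and at 60.9, 76.9 and 71.4 CPM in the libraries labelled transgenic, without overlap. Cacng6 differed by -0.52 ± 0.13 on the log2 scale (interval -0.81 to -0.22, edgeR adjusted p = 0.0921). It passed without control replicate 1 (-0.55, adjusted p = 0.0367) and with DESeq2 (-0.51, adjusted p = 0.0197). Without any other single library it did not pass, with edgeR adjusted p from 0.196 to 0.265.

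Within each library the ratio of Cacng1 to Cacng6 does not depend on how libraries are scaled. On the FPKM scale it was 2.65, 3.63 and 2.98 in control replicates 1, 2 and 3, and 6.42, 8.64 and 8.01 in the libraries labelled transgenic. The means were 3.09 ± 0.498 and 7.69 ± 1.15 (SD, n = 3 each), and the lowest library labelled transgenic lay well above the highest control. The difference of the means was between 4.13 and 5.24 when each library was left out in turn. This ratio was formed after the values were seen and is given as a description. The RefSeq window of Cacng6 is shown because its RNA had the smallest adjusted p of the muscle channel genes that averaged 10 FPKM or more, with CANNTG in capitals.
Cacng6, chr7:3424412-3424711, plus strand: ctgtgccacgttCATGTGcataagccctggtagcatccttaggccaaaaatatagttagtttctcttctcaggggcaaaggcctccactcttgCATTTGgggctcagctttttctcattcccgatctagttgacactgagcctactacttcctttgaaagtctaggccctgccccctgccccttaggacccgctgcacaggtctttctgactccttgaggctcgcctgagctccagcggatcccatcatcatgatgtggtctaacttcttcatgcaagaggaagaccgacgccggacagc
It holds 2 CANNTG, neither of them CAGCTG, and is 52.7% G and C.

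**Figure D3:**
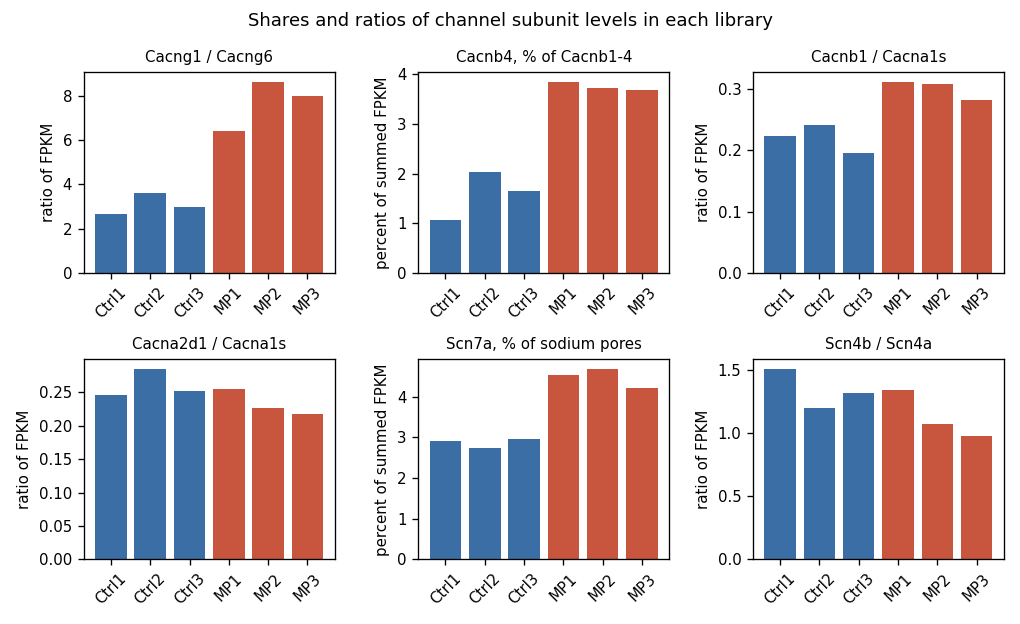
Each panel plots a ratio of FPKM values, or a percent of a summed FPKM, on the y axis for the 6 libraries on the x axis, control in blue and labelled transgenic in red. The Cacng1 to Cacng6 ratio, the Cacnb4 share, the Cacnb1 to Cacna1s ratio and the Scn7a share separate the groups, whereas Cacna2d1 to Cacna1s and Scn4b to Scn4a overlap.

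Cacna2d4, an alpha-2-delta subunit known from photoreceptors, had the lowest log2 fold change of the tested members and rests on few counts. Control replicates 1, 2 and 3 had 42, 16 and 18 counts and the libraries labelled transgenic 2, 1 and 6. In CPM these were 1.75, 0.756 and 0.830 against 0.0827, 0.0485 and 0.240, where 3 counts correspond to 0.120 to 0.145 CPM. The groups did not overlap. Pooled counts of 76 and 9 gave a ratio of 8.82, with an exact 95% counting interval from 4.41 to 20.02, which covers counting error only. The edgeR adjusted p was 0.0623, and it was 0.0310 without control replicate 1, its highest library, and 0.00824 with DESeq2. Without any other single library the edgeR adjusted p ran from 0.109 to 0.208. Cacna2d2 and Cacna2d3, both under 0.1 FPKM, had log2 fold changes of 0.44 ± 0.47 and -0.54 ± 0.41.

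Of the 26 calcium genes 19 were tested and 1 passed edgeR, with 8 at an unadjusted p under 0.05 (5 higher and 3 lower) and 4 with DESeq2. Over all genes these shares were 1.30%, 20.8% and 7.31%. The median log2 fold change of the 19 was 0.44. All 7 tested calcium pores had a positive log2 fold change, from 0.03 (Cacna1s) to 0.55 (Cacna1i), and 0 passed edgeR. At an unadjusted p under 0.05 there was 1 of these, and 0 passed with DESeq2. Cacna1c, the L-type pore of heart and smooth muscle, was at 3.75, 3.31 and 3.60 CPM in controls and 5.70, 4.90 and 4.65 CPM in the libraries labelled transgenic, without overlap (log2 fold change 0.52 ± 0.19, edgeR adjusted p = 0.191). The T-type pores, which open near the resting voltage, lay close together. Cacna1g, Cacna1h and Cacna1i had 0.50 ± 0.22, 0.54 ± 0.28 and 0.55 ± 0.31, with adjusted p-values of 0.257, 0.319 and 0.349. The sum over 10 markers of smooth muscle and pericytes was 307 to 359.5 CPM in controls and 381 to 599 CPM in the libraries labelled transgenic, with 9 of 10 log2 fold changes positive. Endothelial markers gave 396 to 505 and 497 to 856 CPM, with 10 of 10 positive. Of all genes tested, 46.6% were positive. The markers with the smallest p were Notch3 (0.81 ± 0.20) and Myh11 (0.66 ± 0.17) of smooth muscle and pericytes, and Flt1 and Cdh5 of endothelium. Of the 20, 0 passed edgeR, 8 had an unadjusted p under 0.05 and 4 passed with DESeq2. The shares over all genes were 1.30%, 20.8% and 7.31%. The part of these cells in the calcium pore values was not tested, and in whole tissue more cells of a type cannot be told apart from more RNA per cell.

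Outside muscle, the TARP group of gamma subunits is known for carrying AMPA receptors in neurons. Of its 6 members 2 passed the filter. Cacng7 was at 9.88, 9.92 and 11.9 CPM in controls and 7.85, 7.27 and 8.41 CPM in the libraries labelled transgenic, without overlap (log2 fold change -0.43 ± 0.16, edgeR adjusted p = 0.191). Cacng4 had 0.96 ± 0.64 from 1 to 29 counts per library. Cacng6, Cacng7 and Cacng8 lie together on chromosome 7 between 3332955 and 3435667, and the first 2 of these had negative log2 fold changes. On chromosome 11 Cacng1 and Cacng4 are neighbours with positive values, and the adjacent Cacng5 had at most 2 counts in a library. On chromosome 6 the neighbours Cacna1c and Cacna2d4 had values of opposite sign.

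**Figure D4:**
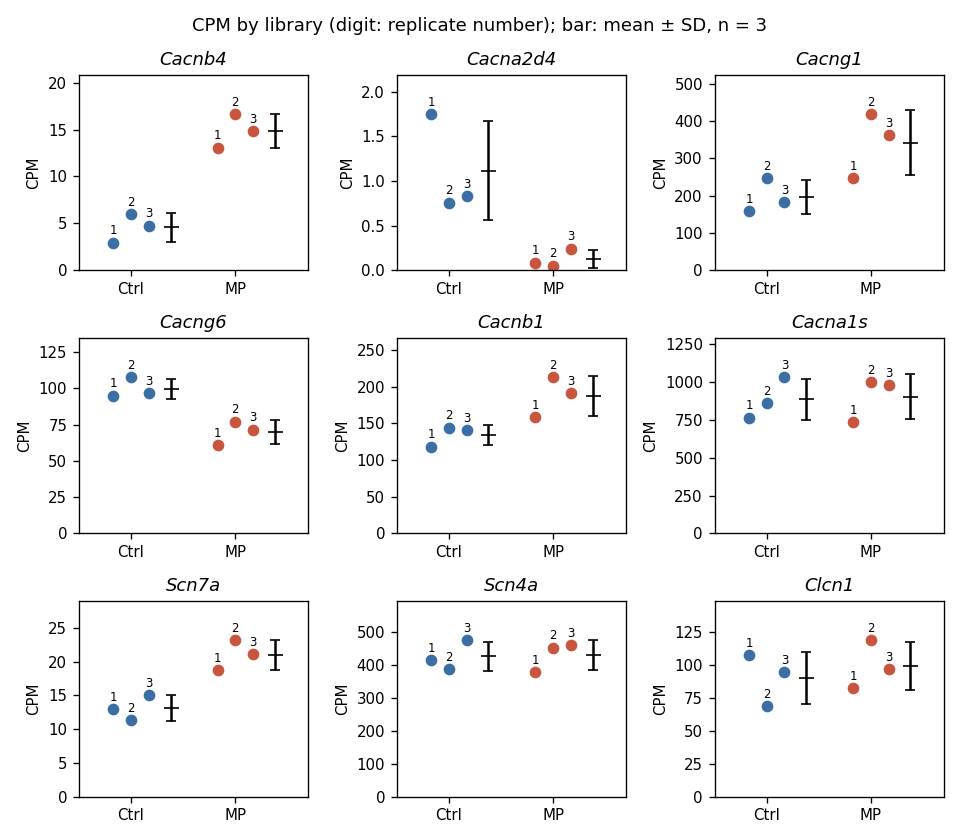
Each panel plots CPM on a y axis from 0 for 1 gene in the 3 control and 3 libraries labelled transgenic, numbered by replicate, with the mean and SD beside each group. Cacnb4 runs from 2.92 to 6.00 in controls and from 13.1 to 16.7 in the libraries labelled transgenic, and the pores Cacna1s, Scn4a and Clcn1 overlap between groups.

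Scn4a and Scn4b, the sodium channel genes of muscle described here, overlapped between groups and did not pass the test. Scn4a (ENSMUSG00000001027, chromosome 11, 106318592 to 106353288) was at 413, 387 and 474 CPM in controls and at 377, 451 and 460 CPM in the libraries labelled transgenic. The log2 fold change was 0.02 ± 0.15 (interval -0.33 to 0.36). Scn4b, a beta subunit linked to resurgent current, was at 442, 329 and 442 CPM against 358, 343 and 320 CPM (-0.25 ± 0.16, interval -0.61 to 0.11). The ratio of Scn4b to Scn4a FPKM lay between 0.983 and 1.51 and overlapped between groups.

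Scn7a encodes Nax, an atypical sodium channel that senses sodium concentration and is also found in peripheral nerve and muscle. It had the smallest p of the sodium group. Control replicates 1, 2 and 3 were at 12.97, 11.3 and 15.1 CPM, and the libraries labelled transgenic at 18.7, 23.2 and 21.1 CPM, without overlap. The log2 fold change was 0.68 ± 0.16 (interval 0.31 to 1.04, edgeR adjusted p = 0.0847). It passed without control replicate 1 (0.67, adjusted p = 0.0442) and with DESeq2 (0.68, adjusted p = 0.0126). Without any other single library it did not pass, with edgeR adjusted p from 0.132 to 0.257. As a share of the summed FPKM of the sodium pores, Scn7a was 2.73% to 2.95% in controls and 4.21% to 4.69% in the libraries labelled transgenic. Schwann cell and nerve markers overlapped between groups, at 314 to 502 CPM in controls and 302 to 495 CPM in the libraries labelled transgenic, with 4 of 11 tested log2 fold changes positive. Fibro-adipogenic progenitor markers, summed over 9 genes, were at 527 to 816 and 879 to 1016 CPM, with 8 of 9 positive. Of all genes tested, 46.6% were positive. The part of these cells in the Scn7a values was not tested. The Scn7a window is shown for its CAGCTG, with CANNTG in capitals.
Scn7a, chr2:66784861-66785160, minus strand: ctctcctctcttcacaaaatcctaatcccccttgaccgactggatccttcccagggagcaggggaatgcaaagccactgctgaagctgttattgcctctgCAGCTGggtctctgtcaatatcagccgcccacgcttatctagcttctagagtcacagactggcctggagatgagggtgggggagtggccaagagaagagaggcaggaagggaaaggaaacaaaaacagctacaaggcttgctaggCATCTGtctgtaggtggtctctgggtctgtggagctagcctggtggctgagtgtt
It holds 2 CANNTG, 1 of them CAGCTG, and is 54.0% G and C.

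Scn7a belongs to a row of sodium pore genes on chromosome 2, with Scn3a, Scn2a, Scn1a and Scn9a, from 65457118 to 66784914. Of these 5 only Scn7a exceeded 0.1 FPKM on average. Scn3a had 0.709, 0.992 and 0.599 CPM in controls and 1.32, 1.02 and 0.761 CPM in the libraries labelled transgenic (0.43 ± 0.35, adjusted p = 0.511). Scn2a had 0.42 ± 0.47, Scn1a had 1 count in all, and Scn9a had 0 counts in every library. Scn10a, a pore of pain-sensing neurons on chromosome 9, also had 0 counts in each library, which allows up to 0.120 to 0.145 CPM. Among the lesser beta subunits Scn2b was at 3.09, 2.98 and 2.63 CPM in controls and 3.84, 3.20 and 4.45 CPM in the libraries labelled transgenic, without overlap (0.41 ± 0.22, adjusted p = 0.330). Scn3b had 0.03 ± 0.51. Of the 18 sodium genes 10 were tested and 0 passed edgeR, with 1 at an unadjusted p under 0.05 and 1 with DESeq2, Scn7a in both. Over all genes these shares were 1.30%, 20.8% and 7.31%.

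In the chloride family 0 of 7 tested genes passed edgeR's test, with 0 at an unadjusted p under 0.05 and 0 with DESeq2. Over all genes these shares were 1.30%, 20.8% and 7.31%. Clcn1 (ENSMUSG00000029862, chromosome 6, 42286685 to 42315756) was at 108, 68.9 and 94.6 CPM in controls and 82.4, 119 and 97.2 CPM in the libraries labelled transgenic. The groups overlapped and the log2 fold change was 0.14 ± 0.20 (interval -0.33 to 0.60). A gene on the opposite strand, Fam131b, shares 8.20% of the Clcn1 exon bases, and its own counts were 18 to 55 per library. Clcn2, a widely expressed channel opened by hyperpolarization, was at 6.63, 7.32 and 5.85 CPM in controls and 8.43, 7.13 and 7.37 CPM in the libraries labelled transgenic (0.21 ± 0.17, adjusted p = 0.511). Fam131a and Polr2h, on the strand opposite Clcn2, share 1.41% and 1.36% of its exon bases and had 353 to 1219 and 114 to 161 counts.

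The intracellular ClC proteins exchange chloride for protons and help to acidify endosomes and lysosomes. Their log2 fold changes were small for the 4 most abundant of the 5 genes, from -0.16 to -0.05, and turned positive for Clcn3, Clcn6 and Clcn7 when libraries were scaled by their totals. Clcn4 was at 59.3, 64.4 and 65.3 CPM in controls and 56.9, 53.1 and 58.5 CPM in the libraries labelled transgenic. These groups did not overlap, although the difference was slight (-0.16 ± 0.10, edgeR adjusted p = 0.402, exact permutation p = 0.1). Gm45631, on the opposite strand, shares 11.5% of the exon bases of Clcn4 and had at most 2 counts in a library. Clcn3, Clcn6 and Clcn7, the last a lysosomal exchanger whose loss causes osteopetrosis, had -0.13 ± 0.13, -0.10 ± 0.13 and -0.05 ± 0.11. Clcn5, an endosomal exchanger best known from kidney, was at 3.38, 1.51 and 2.17 CPM in controls and 3.47, 3.01 and 3.92 CPM in the libraries labelled transgenic (0.55 ± 0.31, adjusted p = 0.353).

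Pores and accessory subunits are set side by side by their counts. Of 19 tested pores 0 passed edgeR, with 2 at an unadjusted p under 0.05 (Scn7a and Cacna1c) and 1 with DESeq2. The median log2 fold change of the pores was 0.21, with 14 of 19 positive. Of 16 tested accessory subunits 1 passed, 7 had an unadjusted p under 0.05 (4 higher and 3 lower) and 4 passed with DESeq2, where the shares over all genes were 20.8% and 7.31%. Their median was 0.01, with 8 of 16 positive, and their median size was 0.50 against 0.21 for pores. Of the accessory subunits 4 had an SE over 0.5, and of the pores 0 did. Whether the kinds differ was not tested. The set of 10 muscle channel genes, among them Scn4a, Scn4b, Cacna1s, Cacna2d1, Cacnb1, Cacng1, Cacng6 and Clcn1, had a median log2 fold change of 0.01 and 0 calls in edgeR. Of these 10, 3 had an unadjusted p under 0.05 and 2 passed with DESeq2, against 20.8% and 7.31% of all genes.

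Cacnb3 and Cacna1e were much higher in control replicate 1 than in the other libraries. Cacnb3, a beta subunit with a known role in T cells, was at 16.3 CPM there and at 2.60, 2.35, 5.45, 3.68 and 3.36 CPM in control replicates 2 and 3 and transgenic replicates 1, 2 and 3. Its log2 fold change was -0.78 ± 0.72 with all libraries (adjusted p = 0.569) but 0.75 once control replicate 1 was left out (adjusted p = 0.103). Cacna1e, the R-type pore, had 85 counts in that library and 4, 6, 3, 15 and 3 in the same others, and did not pass the filter. The 13 lymphocyte markers were at 599.8, 8.55, 15.03, 7.69, 60.2 and 50.2 CPM in the same order, none of them at 0 in all libraries. Of these 13, 5 passed the filter and 0 passed edgeR, either adjusted or at an unadjusted p under 0.05, or DESeq2. Over all genes these shares were 1.30%, 20.8% and 7.31%. The part of lymphoid cells in the Cacnb3 and Cacna1e values was not tested.

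**Figure D5:**
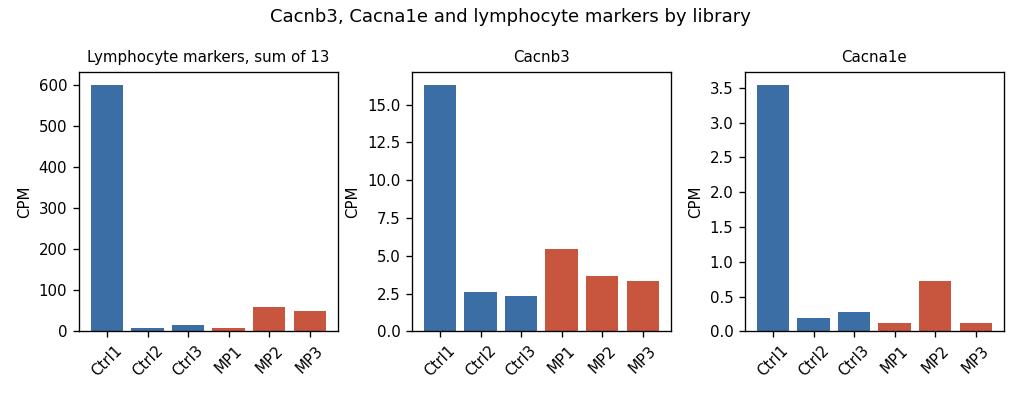
CPM is plotted on the y axis for the sum of 13 lymphocyte markers, Cacnb3 and Cacna1e in the 6 libraries on the x axis, control in blue and labelled transgenic in red. Control replicate 1 is the highest library in all 3 panels, at 599.8, 16.3 and 3.55 CPM.

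The filter left out 17 members, of which 3 (Scn9a, Scn10a and Cacng2) had no count in any library. In 14 of the 17 no library reached 10 counts, and the exceptions were Cacna1e, Scn8a and Scnn1a. Scn8a, the Nav1.6 pore of nodes of Ranvier, had 15, 3 and 6 counts in controls and 8, 9 and 1 in the libraries labelled transgenic. Nefl, Nefm and Nefh, the neurofilament genes of axons, did not pass the filter either. Scnn1a, the alpha subunit of the epithelial sodium channel, had 4, 3 and 0 counts in controls and 6, 16 and 10 in the libraries labelled transgenic. Both other epithelial subunits, Scnn1b and Scnn1g, had at most 3 counts.

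Partners of these channels were counted from lists of other genes. Of all genes tested, edgeR called 1.30%, and 0.788% as higher. Of 29 tested genes of excitation-contraction coupling 1 fell and 0 rose. Calm3, which encodes calmodulin, a calcium sensor that also binds sodium and calcium channels, was at 296, 283 and 333 CPM in controls and 147, 172 and 164 CPM in the libraries labelled transgenic. That is a log2 fold change of -0.92 ± 0.13 (edgeR adjusted p = 0.0286). The median of that list was -0.01. Without overlap, 8 of its 29 genes were lower and 3 higher, against 13.6% and 13.8% of all genes. Among 18 partners of sodium channels and the sodium pump 1 rose, Fgf11, a fibroblast growth factor homologous factor of the kind that binds sodium channel tails. It was at 4.00, 4.06 and 3.92 CPM in controls and 8.02, 11.6 and 9.85 CPM in the libraries labelled transgenic (1.30 ± 0.19, adjusted p = 0.0354). Of 19 chloride channel partners and other chloride channels 1 rose, Ano6, a calcium-activated scramblase and ion channel, from 33.9 ± 1.07 to 60.9 ± 1.47 CPM (0.84 ± 0.10, adjusted p = 0.0209). In the T-tubule and membrane list of 16 genes 1 fell, the syntrophin Sntb1 (-1.54 ± 0.24, adjusted p = 0.0376). The splicing list of 7 had 1 higher, Rbfox2 (0.74 ± 0.11, adjusted p = 0.0376).

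Loss of the nerve changes several muscle channels, so genes of that response were read as well. Of 15 tested genes 1 rose, Sln, a regulator of the calcium pump (5.02 ± 0.67, edgeR adjusted p = 0.0250), and 0 fell. Across the list 8 log2 fold changes were positive and 7 negative. At an unadjusted edgeR p under 0.05 there were 10 of the 15, against 20.8% of all genes. CPM of the groups did not overlap in 5 as higher and 5 as lower, against 13.8% and 13.6% of all genes. This list and that of satellite cell markers were chosen with earlier results of these data known, so their shares are descriptions only. The next smallest p-values belonged to Chrna1, the acetylcholine receptor alpha subunit (0.79 ± 0.14, adjusted p = 0.0512), and to Myog, a myogenic factor (-1.41 ± 0.29, adjusted p = 0.0688). Satellite cell markers had 2 of 10 higher, against 0.788% of all genes. These were Calcr (2.10 ± 0.31, edgeR adjusted p = 0.0324) and Itga7 (0.91 ± 0.15, adjusted p = 0.0406). Each of these 8 calls on partner and marker genes held without control replicate 1 and with DESeq2, and each was lost without control replicate 2 or 3 or transgenic replicate 2 or 3. Without transgenic replicate 1 the calls on Ano6, Fgf11 and Sln held.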

How the data were processed

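RNA-seq libraries of gastrocnemius, 3 of control mice and 3 labelled transgenic, were grouped by sample title and genotype. HISAT2 2.0.5, featureCounts 1.5.0-p3 and build GRCm38 are named per the submitters' processing notes. No source used here names the annotation release or strand setting, and reads of overlapping genes on opposite strands cannot be told apart. The authors deposited whole-number counts per Ensembl gene, with totals of 19546456 to 24665024, and FPKM values, per the file headers.

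The test on all genes' counts was run in R 4.3.3 with edgeR 4.0.16 (TMM scaling, filterByExpr, the newer quasi-likelihood method), and 14973 genes passed the filter. Over these, Benjamini-Hochberg adjusted p-values under 0.05 count as passing. SEs were computed as the size of the log2 fold change over the root of F. CPM uses TMM library sizes, and FPKM serves for levels, shares and ratios with no test. Errors after log2 fold changes are SEs and other errors SDs.

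Members described in full were the muscle channel set, members past the threshold and the 3 others with the smallest p in each family. Other lists contributed at most 4 called genes each, or else 2 ranked by p. Some members are counted but not reported here by name. Members and lists were chosen with earlier results of these data known. Myog, Chrna1 and the low members were named, and the shares and ratios formed, after their values were seen. Alternatives were DESeq2 1.42.0, other scalings, no filter, a replicate block and leaving out each library. The fitting steps were tested on simulated data. Start-site windows are from RefSeq and exon overlaps from GENCODE M21.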

Additional observations from a re-analysis of the deposited data

How the results depend on the processing

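The count of all genes called by edgeR, 194, became 1065 with DESeq2, 124 without the filter and 5 with the replicate number as a block, and ran from 0 (without control replicate 3) to 1956 (without control replicate 1) when single libraries were left out. At 0 calls, 2116 genes had an unadjusted p under 0.05. For channel genes the count of 1 became 5 with DESeq2 and 0 with the replicate block, and ran from 0 to 4 when libraries were left out. Whether replicate numbers pair the libraries is not in the labels. Same-numbered libraries correlated at -0.0029, -0.15 and 0.17 in their deviations, the last being the highest of all pairs. Control replicate 1 correlated best with transgenic replicate 2 (0.16). With n = 3 per group the deviations depend on each other, so these values cannot decide on pairing. Cacnb4 under the block was at 1.75 (adjusted p = 0.0844). Scaling by library totals moved the median of all genes from -0.03 to 0.12, with 205 of 259 calls higher in place of 118 of 194. Under it Cacna2d1, Clcn7, Clcn3 and Clcn6 turned positive, at 0.019, 0.099, 0.011 and 0.043. Scn3b was at -0.080 with the block. Sign changes on leaving out a library had these ranges: Cacna1s -0.068 to 0.17, Scn4a -0.048 to 0.12, Clcn1 -0.024 to 0.28, Scnm1 -0.029 to 0.14, Clcn7 -0.097 to 0.014, Cacnb3 -1.19 to 0.75, Scn3b -0.61 to 0.43, Scn2a -0.18 to 0.65 and Cacna1d -0.44 to 0.46. Cacnb4, Cacna2d4, Scn7a, Cacng6, Cacng1 and Cacnb1 kept their sign in all 11 alternatives run. The causes of these changes were not tested. SEs of members reached 0.72 (Cacnb3), and what depth adds to them was not tested.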

Other observations

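The 39 members with a RefSeq start-site window were searched for CACGTG, an E-box form bound by factors such as those of the clock and of lysosome genes, and 3 held it. These were Clcn4 with 1 copy and Clcn6 and Clcn7 with up to 2 in a window, and the other exchangers, Clcn3 and Clcn5, held none. The letters occur in 7.15% of all 32851 windows, so 3 of 39 is near the background. CAGCTG was found in 13 of the 39 members, against 16.3% of all windows, where a member with several starts has several windows. A pattern made from the core motif of MEF2 factors of muscle, with any base allowed at its centre, was searched for as well. It was found in 1 of the 39, Clcn1, against 3.69% of all windows. This pattern is not the motif itself, so the share of members or windows with a MEF2 site was not measured. These searches were made after the values were seen, and Clcn1, Clcn4, Clcn6 and Clcn7 did not pass the test between the libraries labelled transgenic and control.

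Scnn1a had 32 counts pooled over the libraries labelled transgenic and 7 over the controls, a ratio of 4.38 with an exact 95% counting interval from 1.90 to 11.7, which leaves out the spread between libraries. It did not pass the filter on low counts.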
